A study of Caenorhabditis elegans with 2 samples.

Results

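A set of 827 weak sites of HIM-1 signal on the autosomes of Caenorhabditis elegans, all away from protein-coding promoters, is described here. They come from 12228 entries in the list of peaks and background called on both replicates together, of which 9721 are on autosomes. Binding by HIM-1 at each site was not tested. The members were chosen by measured values and by position. Each is an autosomal entry of that pooled list that the authors' optimal list does not hold, with a pooled signal value of at least 70, an overlap with an entry in the list of each replicate, and a summit more than 500 bp from every protein-coding 5' end and outside coding sequence. Of 8330 autosomal entries outside the optimal list, 1499 reached a signal of 70, and 1460 of these were present in both replicates. Promoter position then removed 554 and coding sequence 79, which left the 827.

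HIM-1 is the SMC1 subunit of cohesin, a ring-shaped complex of paired SMC proteins closed by a kleisin. Cohesin holds sister chromatids together until they separate in mitosis and meiosis, and it also extrudes chromatin loops. In many species it is loaded at active genes and accumulates at promoters, at enhancers, at convergent gene ends and at genes of RNA polymerase III such as tRNA genes.

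Chromatin immunoprecipitation sequencing was done on 2 biological replicates of 1 group, whole hermaphrodites of strain YL576 collected as L4 larvae or young adults at 51 h after release from L1 starvation. The strain is a transgenic line that carries an insertion expressing HIM-1 with a C-terminal GFP-FLAG tag, also named HIM-1-eGFP in the labels, and no promoter or cell type of expression is named, so germline and somatic nuclei cannot be told apart. The labels' text names an anti-GFP antibody and their antibody field names him-1, and both replicates were set against the same control. No untagged or GFP-only precipitation was analysed here, read depth is unknown, and signal is the authors' value on a scale that the sources used here do not give.

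Sequences at the summits show the kinds of site in the set. The first group shows the highest members in introns and in intergenic sequence, each as 101 bases of the plus strand centred on the summit, from the RefSeq copy of WBcel235 (ce11). Capitals mark a searched motif, here the AP-1-like letters TGAGTCA on the opposite strand.
gpa-1 intron, next to a leucine tRNA gene, V:11174850-11174950: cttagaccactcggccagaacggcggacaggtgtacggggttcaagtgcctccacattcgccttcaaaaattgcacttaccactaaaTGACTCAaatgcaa
tbc-8 intron, III:10367629-10367729: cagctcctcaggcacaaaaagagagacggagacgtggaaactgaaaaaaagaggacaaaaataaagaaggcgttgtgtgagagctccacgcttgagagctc
daf-14 intron, IV:10252648-10252748: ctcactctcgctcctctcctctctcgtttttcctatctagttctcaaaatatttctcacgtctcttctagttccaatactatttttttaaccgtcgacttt
upstream of ZK829.7, IV:11962065-11962165: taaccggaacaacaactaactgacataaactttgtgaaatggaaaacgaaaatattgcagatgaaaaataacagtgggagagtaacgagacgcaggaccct
upstream of spc-2, III:8180656-8180756: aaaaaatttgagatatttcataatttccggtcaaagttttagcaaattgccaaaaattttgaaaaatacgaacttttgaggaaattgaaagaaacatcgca
upstream of syx-16, at srpr-2.1, III:5211357-5211457: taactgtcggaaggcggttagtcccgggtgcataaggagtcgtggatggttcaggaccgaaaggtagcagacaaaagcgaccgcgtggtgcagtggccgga
The tbc-8 site is rich in purines on the plus strand, the daf-14 site is rich in pyrimidines, and the spc-2 site is an A/T-rich stretch of which 94.5% of the 201-bp window is soft-masked as repeat. GC content in the 201-bp window ranged from 26.4% at spc-2 to 58.7% at srpr-2.1 among these 6.

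The second group shows the highest members beside snoRNA and snRNA genes and the highest with a GAGA repeat within 50 bp of its summit. Capitals mark the core of the B box, an internal promoter element of tRNA genes (GTTCGANNC), the Sp1-like letters GGGCGG and the GAGA repeat (GAGAGAGA, here on the opposite strand).
T24H7.2 intron, at the snoRNA gene T24H7.6, II:6248624-6248724: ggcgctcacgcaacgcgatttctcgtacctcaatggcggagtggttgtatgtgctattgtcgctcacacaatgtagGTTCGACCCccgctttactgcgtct
upstream of dyf-13, at the snRNA gene C27H5.11, II:7171836-7171936: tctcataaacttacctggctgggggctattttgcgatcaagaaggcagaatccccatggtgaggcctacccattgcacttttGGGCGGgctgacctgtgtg
intergenic site with a GAGA repeat, IV:6834794-6834894: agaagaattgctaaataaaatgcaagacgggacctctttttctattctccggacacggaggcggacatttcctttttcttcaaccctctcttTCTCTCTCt
The T24H7.6 window holds the B box letters although the gene there is annotated as a snoRNA gene. A match of letters is a description of the sequence and not a binding site.

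Signal values describe how the members were selected and support nothing further. Pooled signal ran from 70.03 to 101.9, with a median of 80.1, where autosomal optimal peaks of the same position (more than 500 bp from 5' ends and outside coding sequence, n = 742) ran from 102 to 656. The members nearest the minimum had 70.03 and 70.05, and the entries just below it had 69.99 and 69.91. At the upper edge the highest member had 101.9 and the lowest optimal peak of the same position 102.05. The authors' q-value was 0.05 or less for 308 members (37.2%), against all 742 of those optimal peaks.

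Replicate 1 signal had a median of 46.97 (24.5 to 117) over the members and replicate 2 signal a median of 34.1 (17.9 to 150). Replicate 1 was higher at 658 members (79.6%), with a median ratio of 1.39 and extremes of 0.395 and 4.43. Within each replicate's own list the members had a median rank of 3128 of 16213 in replicate 1 and 3056 of 15469 in replicate 2. Only 8 (0.967%) ranked within the first 1797, the length of the optimal list, in both replicates, and 197 (23.8%) did so in at least 1, whereas 517 (69.7%) of the optimal peaks of the same position did so in both. Spearman's rho between the replicates' signals was -0.27 across members (n = 827), 0.60 across those optimal peaks (n = 742) and 0.04 across the remaining entries of the same position found in both replicates (n = 2173). A pooled signal held between narrow limits, and close to the sum of both replicates, favours a negative value among members by its construction. The label "reproducible" therefore means presence in both lists, not equal strength.

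**Figure D1:**
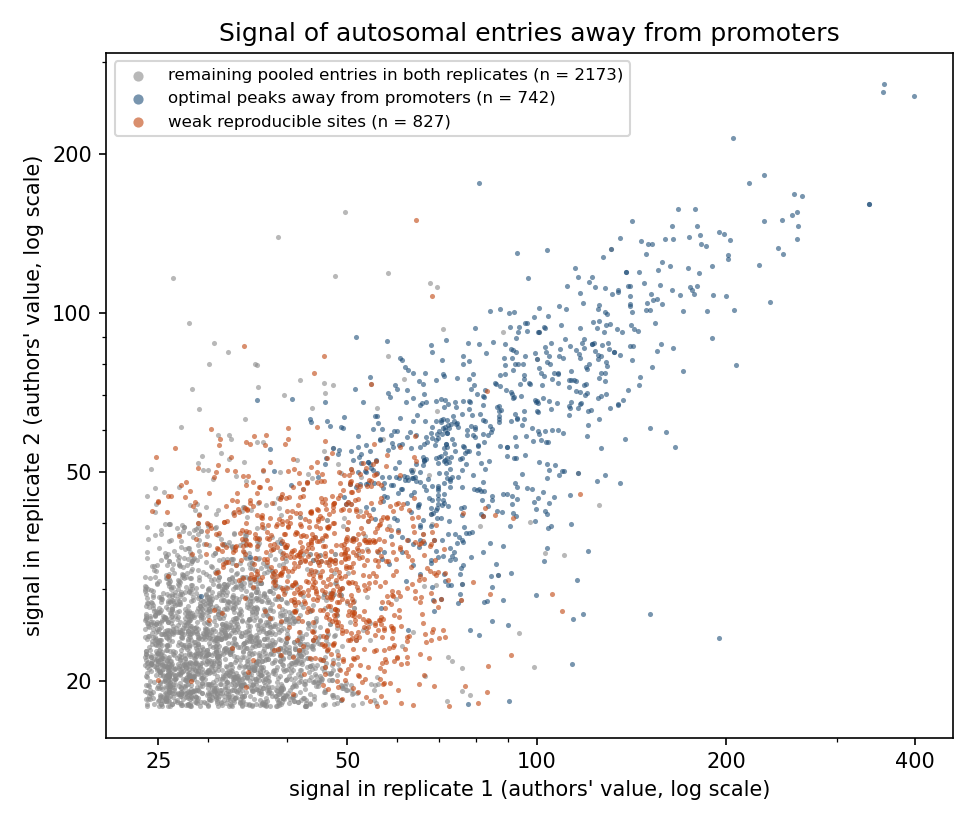
Replicate 1 signal (x axis) against replicate 2 signal (y axis), both the authors' values on log scales, with 1 point per autosomal entry away from promoters. The 827 weak sites form a band across the diagonal between the 742 optimal peaks and the 2173 remaining entries that are present in both replicates, since the pooled signal chose them.

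Presence in both replicates was part of the choice of members and is tied to pooled signal by construction. Of the 841 entries with the right position and a signal of at least 70, 827 (98.3%) overlapped an entry in both replicates, 13 in replicate 1 only and 1 in replicate 2 only. Below 70 the share was 55.5% (2173 of 3916). Summits lay a median of 18 bp from the replicate 1 summit and 22 bp from the replicate 2 summit, and both offsets were within 50 bp for 470 members (56.8%), against 66.98% of the optimal peaks and 38.7% of the remaining entries found in both replicates.

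The highest site on chromosomes II to V, IV:11961880-11962349, lies 580 bp upstream of ZK829.7. Its signal was 101.9 pooled, 56.0 in replicate 1 and 47.6 in replicate 2. The site at III:8180471-8180940, 1175 bp upstream of spc-2, had 101.8, 55.1 and 49.4. Their ratios of replicate 1 to replicate 2 were 1.18 and 1.12, beside a median of 1.39 over all members, without adjustment for depth. Their pooled signals were just below those of the weakest optimal peaks of the same position. At the spc-2 site, 70.3% of the 30-base words occur once in the genome. The gpa-1 site at V:11174665-11175134 lies in an intron of that gene, which encodes a G protein alpha subunit, and its signal was 101.8 pooled, 63.9 in replicate 1 and 28.8 in replicate 2. The srpr-2.1 site at III:5211172-5211641 had 101.7, 65.5 and 36.5. These sites were stronger in replicate 1, and only 25% of the 30-base words at srpr-2.1 occur once in the genome, and the part of reads from other copies in its signal was not tested. The tbc-8 site at III:10367444-10367913, in an intron of a Rab GTPase-activating protein gene, had 101.7, 53.4 and 50.9. The site at II:5042305-5042774, 1859 bp upstream of F33G12.7, had 101.4, 49.4 and 49.3, the closest replicate values among the 12 highest.

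By position, 453 members (54.8%, Wilson 95% interval 51.4 to 58.1) were intergenic, 307 (37.1%, 33.9 to 40.5) were in introns and 67 (8.10%, 6.43 to 10.2) in untranslated regions. Intervals of this kind cover counting error only. They treat sites as independent and do not measure the spread between cultures. The intron share was 35.2% among optimal peaks of the same position, 44.02% (42.5 to 45.6) among the 3930 remaining autosomal entries of that position, and 46.2% of all eligible positions, meaning every 50th base of the autosomes that passes the position rule (950689 positions, from 47.54 Mb). The members thus lay in introns less often than the remaining entries, with intervals that do not overlap, and about as often as the optimal peaks. The untranslated share was above the 2.70% (1.75 to 4.13) of optimal peaks and near the 6.82% of remaining entries. Of the 67 members in untranslated regions, 61 were in 3' and 6 in 5' untranslated regions.

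Intronic members lay in long introns of long genes. The median length of the intron was 2607 bp, against 2655 bp at optimal peaks, 1367 bp at remaining entries and 1020 bp over eligible intronic positions. Host genes of intronic members had a median length of 11387 bp, compared with 10495 bp for optimal peaks, 9717 bp for remaining entries and 1964 bp over all 17242 autosomal protein-coding genes. A gene counts once per site in these medians, and long genes hold more eligible sequence. A first intron of some transcript held 108 of the 307 (35.2%, 30.05 to 40.7), against 23.1% of eligible intronic positions. The share among optimal peaks was 41.4% and among remaining entries 33.5%.

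Intronic members were spread over 250 genes, and 55 genes held at least 2 members in an intron or untranslated region. The gene with the most was crh-1, the homologue of the transcription factor CREB, with 5 members in 36215 bp. Their pooled signals were 97.6, 91.5, 91.3, 74.4 and 70.4. In the order of pooled signal, replicate 1 gave 71.03, 51.8, 51.3, 53.3 and 37.9, and replicate 2 gave 25.0004, 35.8, 44.1, 29.8 and 31.6. The crh-1 site with the highest replicate 1 value had the lowest replicate 2 value. Genes with 4 members on chromosomes II to V were lit-1, a Nemo-like kinase of Wnt signalling, par-1, a kinase of cell polarity, and pde-4, a cyclic AMP phosphodiesterase. The pde-4 members had pooled signals of 97.3, 91.6, 76.6 and 75.1 and the par-1 members 98.7, 85.1, 79.5 and 71.2. At lit-1 the pooled signals were 79.8, 79.05, 73.99 and 72.2, and the first pair overlapped the same replicate 2 entry, of signal 38.02. These genes were picked for their counts after the values were seen.

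Among intergenic members, 261 (57.6%, 53.0 to 62.1) lay between genes on the same strand, 147 (32.5%, 28.3 to 36.9) between divergent genes and 45 (9.93%, 7.51 to 13.0) between convergent genes. Eligible intergenic positions were 54.2%, 31.0% and 14.6%, so convergent spaces held fewer members than their share of sequence. The convergent share was 8.89% among optimal peaks and 11.1% among remaining entries. A protein-coding 3' end lay within 250 bp of the summit of 108 members (13.1%, 10.9 to 15.5), against 8.61% of eligible positions, 9.70% (7.78 to 12.05) of optimal peaks and 12.1% (11.2 to 13.2) of remaining entries. The distance to the nearest protein-coding 5' end had a median of 1920 bp (501 to 20088), and 55.1% of members were upstream of it, between the 62.9% of optimal peaks and the 51.8% of remaining entries.

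Although away from protein-coding promoters, part of the set sat at genes for structural RNAs. A tRNA, snoRNA or snRNA gene lay within 250 bp of 55 members (6.65%, 5.15 to 8.56), which were 29 at tRNA, 18 at snoRNA and 8 at snRNA genes. The share was 0.577% of eligible positions and 2.60% (2.14 to 3.14) of remaining entries, and 14.02% (11.7 to 16.7) of optimal peaks, with no overlap between the members' interval and any of the other values. It was 5.11% (3.37 to 7.68) of the 411 members with signals of 70 to 80 and 6.84% (4.25 to 10.8) of the 234 with 80 to 90. Above that it was 9.89% (6.35 to 15.1) of 182, and these intervals overlap. The tRNA share alone was 3.65%, 2.99% and 3.85% in the same order. Within bands of GC content, the members' interval for structural RNA genes was above that of remaining entries only at 40% to 45%. There the shares were 7.49% (4.73 to 11.7) of members, 2.59% (1.67 to 4.01) of remaining entries and 13.6% (8.98 to 20.1) of optimal peaks. At 45% and above they were 10.5% (7.19 to 14.99), 7.39% (5.34 to 10.2) and 16.3% (13.3 to 19.9). In every band the intervals of members and optimal peaks overlapped. Counted by gene, 31 of 336 autosomal tRNA genes (9.23%, 6.58 to 12.8) had a member within reach, and 73 (21.7%) had an optimal peak of any position, with 2 in both groups. A remaining entry, of which there are 3930, lay within reach of 62 (18.5%). For snoRNA genes the counts with a member, an optimal peak and a remaining entry were 18, 67 and 31 of 313, and for snRNA genes 8, 12 and 9 of 126. The 31 tRNA genes were of 18 isotypes, with no more than 3 genes of any, at aspartate, leucine and threonine. A member's summit lay inside the gene for 10 of the 31.

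Named tRNA sites on chromosomes II to V, besides the leucine tRNA gene in gpa-1 (V:11174790-11174873), were a phenylalanine tRNA gene in an intron of F22B7.9 and a tyrosine tRNA gene upstream of T22F7.1. The F22B7.9 site (III:8652781-8653250) had signals of 100.8 pooled, 56.5 in replicate 1 and 44.7 in replicate 2. The T22F7.1 site (III:535158-535627) had 96.6, 52.9 and 41.2. All these tRNA sites were higher in replicate 1, as were 79.6% of all members. The ratio was 2.22 at gpa-1, 1.26 at F22B7.9 and 1.28 at T22F7.1, beside a median of 1.39 over all members. Between 57.6% and 76.7% of the 30-base words at these tRNA sites were unique. Genes for tRNAs come in near-identical copies, among which reads cannot all be told apart. Whether the repeated words lie in the tRNA genes was not tested. At snoRNA genes, the T24H7.6 site (II:6248439-6248908) had 101.3, 57.5 and 51.3, and the F01D5.12 site (II:14018181-14018650) had 96.03, 75.6 and 28.6. The C16D9.10 site (V:8247793-8248262) had 93.6, 34.5 and 56.8. Among these sites F01D5.12 had the highest replicate 1 value and C16D9.10 the highest replicate 2 value, which their similar pooled signals favour by construction. At snRNA genes, the C27H5.11 site (II:7171651-7172120) had 100.7, 53.7 and 46.9, and the R07E5.16 site (III:4413949-4414418), in an intron of the mitochondrial pyruvate carrier gene mpc-1, had 95.01, 56.6 and 34.6. Unique words made up 56.4% and 41.9% of these windows.

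Genes of the annotation's general class ncRNA, short transcripts of mostly unknown role, were near 144 members (17.4%, 14.98 to 20.1), against 26.7% (23.6 to 29.98) of optimal peaks, 8.60% (7.76 to 9.52) of remaining entries and 3.96% of eligible positions. Pseudogenes were near 7 members (0.846%, 0.411 to 1.74), 1.75% (1.03 to 2.97) of optimal peaks, 2.95% (2.47 to 3.53) of remaining entries and 7.37% of eligible positions. Genes for piRNAs, small RNAs of germline genome defence that lie in clusters on chromosome IV, were near 19 members (2.30%, 1.48 to 3.56), below their 5.83% share of eligible positions. They were near 1.75% (1.03 to 2.97) of optimal peaks and 3.23% (2.72 to 3.83) of remaining entries, with intervals that overlap that of the members. No member lay near a ribosomal RNA gene, which allows a share of up to 0.363% (3 counts of 827), while such genes were near 0.0396% of eligible positions, so no difference was detectable.

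**Figure D2:**
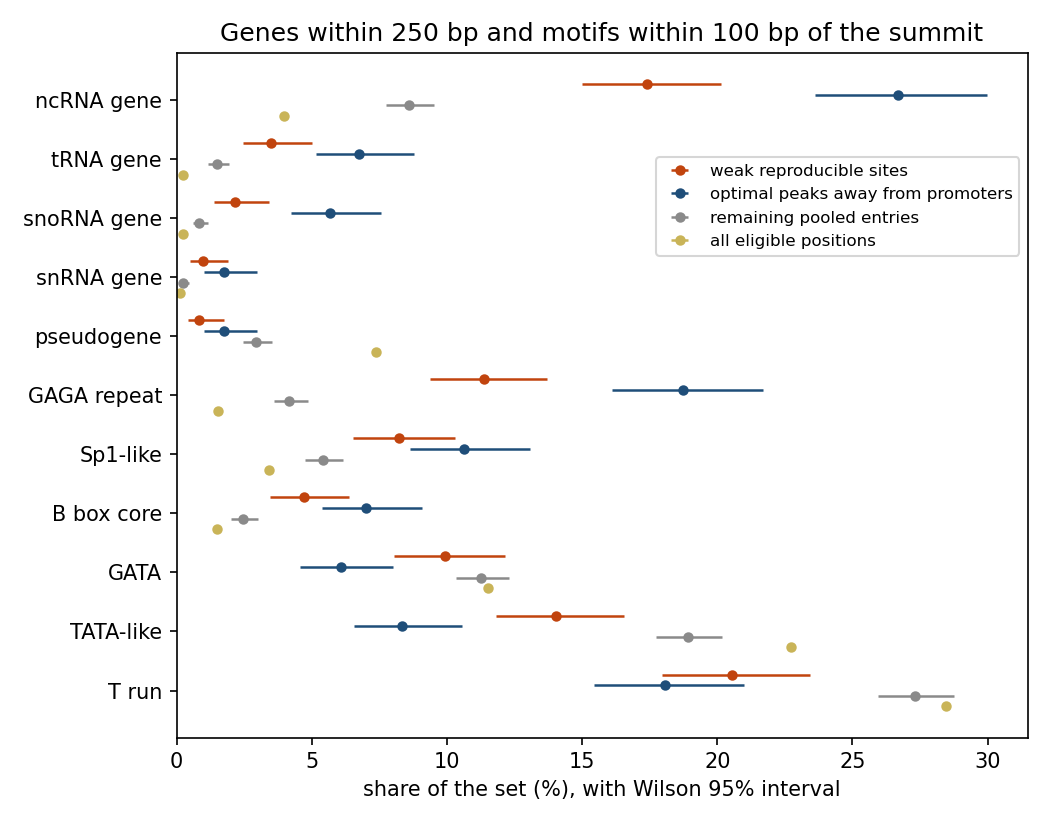
Share of each set (x axis, percent, with Wilson 95% intervals) whose summit or position lies within 250 bp of a gene of each class or has each motif within 100 bp, for the weak sites, the optimal peaks of the same position, the remaining pooled entries and all eligible positions. For structural RNA genes, ncRNA genes and the GAGA repeat the weak sites lie between the optimal peaks and the remaining entries, and for TATA-like letters they do so from the other side.

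Sequence composition was also intermediate. GC content within 100 bp of the summit had a median of 41.3% over members, 47.3% over optimal peaks, 36.3% over remaining entries and 33.3% over eligible positions. It was 41.8% in introns, 41.3% in intergenic sequence and 35.8% in untranslated regions, and it was 40.3% for signals of 70 to 80, 40.8% for 80 to 90 and 43.8% above 90. Soft-masked repeats made up a median of 24.4% of the window, against 19.7%, 33.3% and 41.8% in the other sets in the same order. GC content affects how well fragments are amplified and sequenced, and the part of this in the signal was not tested.

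**Figure D3:**
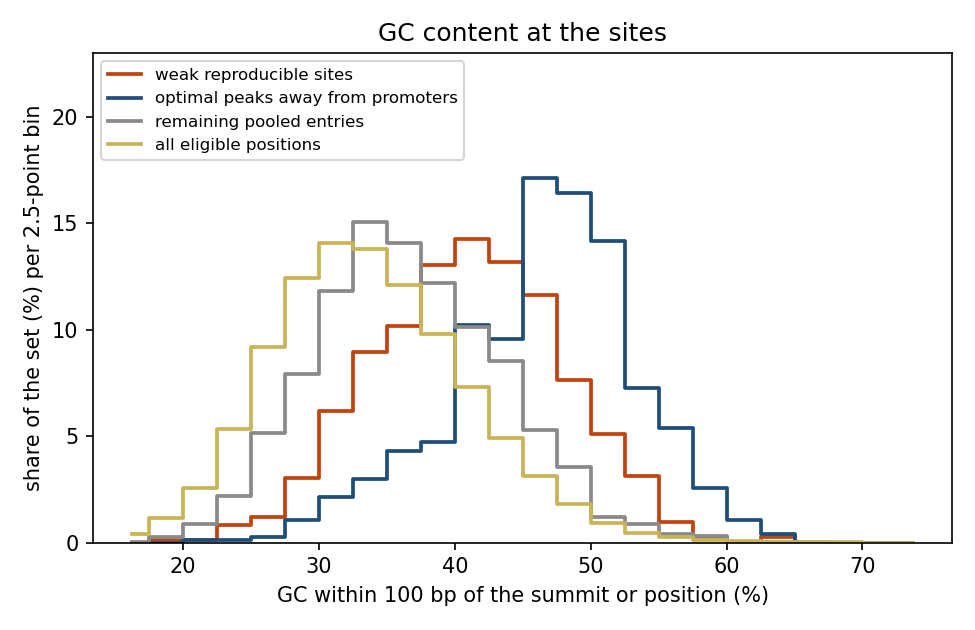
Distribution of GC content within 100 bp of the summit or position (x axis, percent) as the share of each set per bin of 2.5 points (y axis). The weak sites, with a median of 41.3%, lie between the remaining entries at 36.3% and the optimal peaks at 47.3%.

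Of 10 motifs looked for on either strand in the 201-bp window, none of which contains another, the GAGA repeat differed most in ratio between members and eligible positions. It was present at 94 members (11.4%, 9.38 to 13.7), 18.7% (16.1 to 21.7) of optimal peaks, 4.17% (3.59 to 4.84) of remaining entries and 1.55% of eligible positions. Within bands of GC content, the members' interval was above that of the remaining entries in the upper 2 of 4 bands. At 45% GC and above the shares were 20.1% of 239 members (15.5 to 25.6) and 21.3% (17.9 to 25.2) of optimal peaks. They were 9.78% (7.39 to 12.8) of remaining entries and 4.35% of eligible positions. At 40% to 45% they were 13.2% (9.42 to 18.2), 19.05% (13.5 to 26.2), 6.82% (5.21 to 8.88) and 3.28% in the same order. The intervals of members and optimal peaks overlapped in every band. At 35% to 40% the repeat was at 6.77% of members (3.999 to 11.2) and 4.64% (3.52 to 6.10) of remaining entries, and below 35% at 1.78% and 1.23%, with overlapping intervals in both bands. Among members it was at 11.2% for signals of 70 to 80, 10.7% for 80 to 90 and 12.6% above 90, and a minimum of 60 in place of 70 gave 8.92% over the larger set.

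The GAGA repeat and the structural RNA genes marked largely separate members. The repeat was present at 1 of the 55 members near a tRNA, snoRNA or snRNA gene (1.82%, 0.322 to 9.61) and at 93 of the other 772 (12.05%, 9.94 to 14.5). The B box core was at 19 of the 55 (34.5%, 23.4 to 47.7) and at 20 of the 772 (2.59%, 1.68 to 3.97). The B box is a known element of tRNA genes, and a match of its letters alone does not mark one. Members near structural RNA genes were in a first intron in 1 of 25 intronic cases, with a median intron of 556 bp, whereas the others were so in 107 of 282 (37.9%, 32.5 to 43.7), with a median of 3126.5 bp. Their GC medians were 44.8% and 40.8%.

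Among the other motifs, the Sp1-like letters GGGCGG were at 8.22% of members (6.54 to 10.3) against 10.6%, 5.42% and 3.42% in optimal peaks, remaining entries and eligible positions. The E-box CACGTG was at 4.59% (4.85%, 3.77%, 2.87%), the E2F-like GCGCGAA at 2.30% (2.83%, 1.45%, 1.23%), the CRE TGACGTCA at 1.69% (1.89%, 1.48%, 1.23%) and the AP-1-like TGAGTCA at 1.57% (1.75%, 2.01%, 1.67%). Intervals of the members and the remaining entries overlapped for these last 4 motifs. TATA-like letters and T runs were less frequent than in eligible sequence. TATA-like TATAAA was at 14.03% (11.8 to 16.6) of members and 22.7% of eligible positions, and the T run TTTTTTTT at 20.6% (17.9 to 23.4) and 28.4%, while the interval for AGATAA held the eligible share. AGATAA, the letters that GATA factors of the intestine and epidermis recognise, was at 9.92% (8.06 to 12.1) and 11.5%. Members were again between optimal peaks (8.36%, 18.1% and 6.06%) and remaining entries (18.9%, 27.3% and 11.3%).

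A part of the set consisted of neighbours of stronger peaks. An optimal summit lay within 1000 bp of 103 members (12.5%, 10.4 to 14.9), compared with 5.22% (4.56 to 5.96) of remaining entries and 2.89% of eligible positions. The median gap at these 103 was 204 bp, and the smallest distance between any summits in the pooled list was 199 bp. A total of 80 members lay less than 250 bp from an optimal summit and only 4 between 250 and 500 bp. These 84 overlapped an optimal peak, all members being 470 bp wide, so their reads and those of the neighbour cannot be fully told apart. The optimal neighbours of the 103 had a median signal of 152, against 144 over all optimal peaks, and 64 of them were intergenic, 27 intronic and 8 at promoters. The distance to the nearest optimal summit had a median of 8237 bp over all members, 15782.5 bp over remaining entries and 31162 bp over eligible positions.

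**Figure D4:**
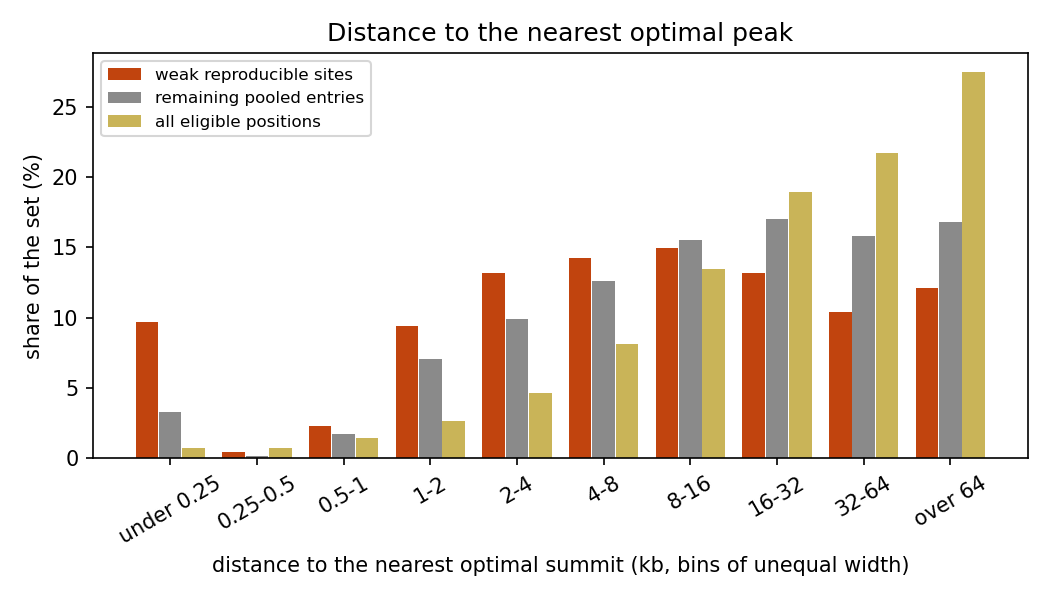
Distance from the summit or position to the nearest optimal summit (x axis, kb, in bins of unequal width) as the share of each set (y axis, percent). The first bin holds 9.67% of the weak sites, 3.28% of the remaining entries and 0.734% of eligible positions, and the second bin 0.484% of the weak sites.

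The sites with the highest and the lowest ratio of replicate 1 to replicate 2 were among these neighbours. Unequal values were not confined to them, since the ratio was above 2 at 168 members (20.3%), more than the 103 neighbours. At gpa-1, 50764 bp from an optimal summit, it was 2.22. The highest ratio, 4.43, was at IV:16415343-16415812 in an intron of Y65A5A.2, with 84.1 pooled, 80.5 in replicate 1 and 18.2 in replicate 2, at 231 bp from an optimal summit. The lowest, 0.395, was at IV:1070527-1070996 upstream of znf-782, with 72.5, 34.2 and 86.5, at 200 bp from one. In 10 members a replicate's signal was higher than the pooled signal, and all 10 overlapped an optimal peak. In replicate 1, 16 members shared their entry with an optimal peak, and in replicate 2, 18 did, so those replicate values belong to the neighbour as much as to the member.

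Along the chromosomes the members were denser in the middle. There were 25.6 per Mb of eligible sequence in the middle 50% of the autosomes (549 members) and 10.6 in the outer parts, 25% of the length at either end (278), giving a ratio of 2.41. The ratio was above 1 on every autosome, from 1.803 on chromosome III to 4.38 on chromosome V, where the outer parts held 37 members. It was 2.26 for optimal peaks and 1.66 for remaining entries. Density was highest on chromosome III, at 22.4 per Mb, and lowest on chromosome IV, at 13.3, around 17.4 for all autosomes. The X chromosome under the same rule had 263 sites, 22.6 per Mb, with a ratio of 1.33. Gaps between neighbouring members had a median of 46133.5 bp, and 20 of 822 were under 470 bp. Of 167 bins of 500 kb, 13 held no member, the median was 4, and the fullest, III:5500001-6000000, held 17.

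**Figure D5:**
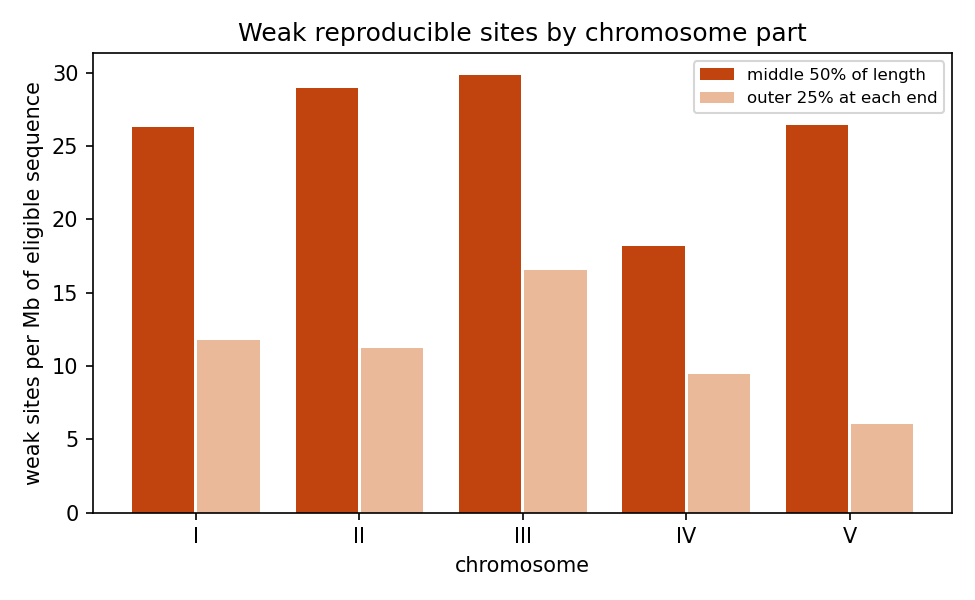
Weak sites per Mb of eligible sequence (y axis) on each autosome (x axis), in the middle 50% of its length and in the outer 25% at each end. The middle bar is the taller on each of the 5 autosomes, with a ratio of 2.41 over all of them.

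Genes of 12 lists were matched to members by host gene or, outside genes, by the nearest 5' end, which is a label of position. Neuronal genes held 27 members (3.26%, 2.25 to 4.71) at 18 genes, against 2.96% of optimal peaks and 2.75% of remaining entries. The highest on chromosomes II to V were gar-2, a muscarinic acetylcholine receptor (III:6310124-6310593; 99.1 pooled, 65.4 in replicate 1, 29.0 in replicate 2), and sax-7, an L1-family adhesion molecule (IV:8070361-8070830; 89.7, 71.5 and 24.2). Both were stronger in replicate 1, and the site upstream of egl-8, a phospholipase C beta, was closer to equal (V:15478-15947; 88.96 pooled, 46.3 in replicate 1, 39.2 in replicate 2).

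Homeobox and other patterning transcription factor genes held 18 members (2.18%, 1.38 to 3.41) at 5 genes, which were daf-16, egl-27, fkh-7, unc-39 and unc-42, against 1.89% and 1.501%. The sites at V:14366694-14367163 and V:14369412-14369881 lie 6145 and 3427 bp upstream of unc-39, a SIX-family homeobox gene. They had 97.3 and 90.1 pooled, 29.9 and 41.95 in replicate 1, and 38.6 and 35.1 in replicate 2. The first of these lay 218 bp from an optimal summit. The site 10569 bp upstream of egl-27, an MTA-family chromatin gene (91.6 pooled, 59.8 and 43.4), lay 204 bp from one. Nuclear hormone receptor genes held 8 members (0.967%, 0.491 to 1.90), against 0.539% of optimal peaks and 1.60% of remaining entries. A pair in the first intron of nhr-46 had 96.9 and 92.8 pooled. Its values were 50.4 and 49.1 in replicate 1, and 47.3 and 42.5 in replicate 2. This pair was far from any optimal peak, at 146481 bp or more.

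Signalling genes of the Wnt, Notch, TGF-beta, EGF and insulin pathways held 10 members at 9 genes (1.21%, against 1.62% and 0.941%). The highest was in the first intron of daf-14, a Smad of the dauer pathway (IV:10252463-10252932; 101.6 pooled, 53.9 and 36.8 in the replicates), at 203 bp from an optimal summit. Lower sites were upstream of akt-1, a kinase of insulin signalling (86.3, 59.1 and 35.2), and in an intron of mpk-1, the ERK kinase (74.7, 41.96 and 30.2). Muscle genes held 6 members (0.726%, against 0.404% and 0.585%). These included sites by the actin genes act-3 (100.9, 61.3 and 43.5) and act-1 (93.6, 60.6 and 35.96). Another was in the first intron of zyx-1, zyxin (88.3, 40.3 and 50.1). The actin sites were higher in replicate 1 and the zyx-1 site in replicate 2. Cuticle collagens held 2 members (0.242%, against 0.809% and 0.331%), at col-154 (78.2) and col-156 (71.3). Ribosomal proteins held 1 (0.121%, against 0.404% and 0.280%), at rpl-42 (80.7).

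Other lists were empty or nearly so. No member was assigned to a cohesin gene or its regulators, to the germline list, to the intestine list or to the core histones, where a count of 0 allows a share of up to 0.363% (3 counts of 827). The meiosis list had 2 members, both in an intron of brc-1, the BRCA1 homologue, with 90.5 and 86.5 pooled, 55.6 and 54.9 in replicate 1, and 35.3 and 32.2 in replicate 2. Their summits are 205 bp apart and 13.95% and 25% of their 30-base words are unique, so their values are not independent of each other. The remaining entries held 5 at cohesin genes (0.127%), 6 at germline genes (0.153%) and 4 each at intestine, histone and meiosis genes (0.102% each). The optimal peaks held 1 at cohesin genes, 2 at germline genes, 2 at meiosis genes and 0 at intestine and histone genes. The shares of the remaining entries are below 0.363%, so a count of 0 does not show that members avoid these genes. For each of the 12 lists the members' interval held the share of the optimal peaks or of the remaining entries, so none of these shares set the members apart.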

How the data were processed

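Peak lists in ce11 were used for each replicate, for both replicates pooled, and for the optimal list that passed the irreproducible discovery rate. Lists in ce10 served 1 alternative. Each entry holds a signal value and a −log10 q-value that the authors' caller made and deposited. Sets of entries were compared by values of the pooled list. Replicate signals were set beside each other and beside the pooled signal as given, without adjustment for depth. Aligner, caller and library depth were not given in the sources used here. No test was run on values that chose the members, and no p-value is given.

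Members and comparison sets were placed by summit on Ensembl release 115 (WBcel235), in the order promoter, coding sequence, untranslated region, intron and intergenic, and sequence, soft-masking and tRNA isotypes came from RefSeq of the same assembly. Eligible positions were every 50th base passing the position rule. Windows were 201 bp long. Shares carry Wilson 95% intervals. The scripts were tested on simulated sites. Python 3.11.15, NumPy 2.4.6, SciPy 1.17.1, pandas 2.3.3 and matplotlib 3.10.9 were used.

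The members, the lists and the motifs were chosen with earlier results of these data known. Named sites are members on chromosomes II to V with the highest pooled signal over all, by position, by class of RNA gene, by gene list and by motif, and those with the extreme ratios of replicates.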

Additional observations from a re-analysis of the deposited data

How the results depend on the processing

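The lists hold no read counts, so differences in depth between replicates could not be adjusted, and both replicates share a control. No paired analysis was possible because the samples form 1 group with nothing to compare between groups.

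Over the alternatives the median GC content ran from 38.5% to 43.8% and the median intron length from 2308 bp to 3126.5 bp. Lower or higher signal minima changed the number of sites most, to 1424 at 60, 416 at 80 and 182 at 90. The share near tRNA, snoRNA or snRNA genes was 5.13% at 60 and 9.89% at 90, the share near ncRNA genes 14.5% at 60 and 20.4% at 80, and the GAGA share 8.92% at 60. At 80 the intron share was 33.4% and the share within 1000 bp of an optimal peak 14.9%. This last share was 2.56% without members that overlap an optimal peak, 10.2% within 500 bp and 21.9% within 2000 bp. The centre to outer ratio was 1.97 per Mb of all sequence in place of eligible sequence. These alternatives changed the membership, the reach or the denominator, and the causes of the changed values were not tested.

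The following 2 alternatives were chosen after seeing the data. The 724 members over 1000 bp from an optimal summit had an intron share of 37.98%, a median GC content of 41.04% and a ratio of 2.37. The 772 members away from structural RNA genes had 36.5%, 40.8% and 2.504.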
